A study of Mus musculus with 148 samples.

Results

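B cells of primary breast tumors and of lungs from the same spontaneous metastasis model were examined, as the cells that the authors' annotation of the wells names B. There were 1055 such cells among 24020 annotated cells, of which 23425 were immune cells, so that B cells made up 4.50% of the immune cells. All mice were of the strain PA-GFP C57BL/6 and carried a green fluorescent protein that appears only after illumination. The injected mice were females of 8 weeks when EO771-tdTomato cells, a mouse breast cancer line labeled with a red fluorescent protein, were injected with Matrigel into the right inguinal mammary gland, except in the control mice, which stayed uninjected. Lungs of the group named Pre-MET were taken from mice that still bore the tumor. In the relapse-free, distal normal and metastasis groups it was resected 3 weeks after injection, and the lungs were then imaged weekly until metastases appeared. All tumors thus came from 1 cell line. The groups were primary tumor, control lung (labeled normal), lung of tumor-bearing mice before metastasis (Pre-MET), lung of mice without relapse after resection (relapse-free), lung sections without a metastasis from mice that had metastases elsewhere in the lung (distal normal), lung sections with a metastasis, and photoactivated metastasis core and invasive margin. Cells were sorted as CD31- CD45+, or as CD31- GFP+ where a niche was photoactivated, and relapse-free lungs held both kinds of sort. Lungs and tumors were digested in the same enzymes but dissociated with different machine programs (m_lung and h_tumor), so that the tissue and the program cannot be told apart.

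B cells carry the B cell antigen receptor, a membrane immunoglobulin made of a heavy chain and either a kappa or a lambda light chain, which signals through the Cd79a and Cd79b chains. Resting follicular B cells bear IgM and IgD, recirculate between blood and lymphoid tissue with the help of homing receptors such as Ccr7 and S1pr1, and present antigen on MHC class II. After activation they can enter the cell cycle, form germinal centers, switch to IgG, IgE or IgA, and become plasma cells. In tumors, B cells occur both scattered and in lymphoid aggregates.

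Each well held 1 cell, and each transcript was counted by its unique molecular identifier (UMI). The UMIs of all B cells of 1 mouse and tissue status were added to 1 sum where at least 10 B cells were found, since cells of 1 mouse are not replicates. This gave 30 sums with 1003 cells: 4 of primary tumors and 26 of lungs, the latter from 20 mice. The other 52 B cells lay in 33 samples below the minimum, of which 10 held none. The primary tumor sums held 30 cells in mouse 8, 63 in mouse 9, 47 in mouse 10 and 56 in mouse 38, with 48413, 251146, 101895 and 98782 UMIs. Lung sums held between 8694 and 151269 UMIs, with a median of 24252.5, so that tumor sums were deeper than most lung sums. Levels are given as CPM, which are the UMIs of a gene in 1000000 UMIs of the B cell sum.

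The labeled cells carried the B cell markers. At least 1 UMI of Cd79a, Cd79b, Ighm or Ighd was found in 1000 of the 1055 cells (94.8%) and at least 5 UMIs in 791 (75.0%), against 11.8% and 2.12% of the other immune cells. Within the sums the share with at least 1 marker UMI ran from 93.3% to 96.4% in tumors and from 84.6% to 100% in lungs. Ms4a1, which encodes CD20, had a mean of 1263 CPM in B cells and 4.32 CPM in the other immune cells of the same samples, the highest ratio of any gene with at least 100 CPM in B cells. Among the genes next in that order were the surrogate light chain relative Vpreb3 (657 and 2.34 CPM), Pax5, the factor that maintains B cell identity (220 and 0.830 CPM), and Ly6d (7722 and 30.6 CPM). Fcer2a, a marker of follicular B cells, and Cr2, a complement receptor of mature B cells, had 149 and 175 CPM in B cells against 0.615 and 1.19 CPM elsewhere. These ratios describe the annotation and were not tested, because the annotation was made from the same counts. The most abundant transcripts after the nuclear RNA Malat1 were the kappa constant gene Igkc, with a mean of 17135 CPM, Tmsb4x with 14414 CPM and the MHC class II chain H2-Ab1 with 10096 CPM.

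Transcripts of other cell types occurred in B cells too. At least 1 UMI of the myeloid list was found in 646 cells (61.2%), of the NK cell list in 146 (13.8%) and of the T cell list in 91 (8.63%), and at least 5 UMIs in 118 (11.2%), 10 (0.948%) and 9 cells (0.853%). The summed level of the 10 myeloid genes was 227 to 628 CPM in tumor sums, with each gene above 0 in at least 1 of them. In lung sums it was 260 to 6938 CPM, with a median of 1804 CPM. All 7 genes of the lung epithelium list and the erythroid genes were at 0 in the tumor sums, and they reached 219 and 747 CPM in lung sums. The lowest levels of Cd79a, Cd79b and Ms4a1 were in the core sum of mouse 17, at 50.1, 301 and 501 CPM.

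Libraries stood apart by sequencing batch, in B cells as in other cells. In the immune cells other than B, the ratio of Cd74 to H2-Aa UMIs, genes for the invariant chain and a chain of MHC class II, was between 0.321 and 0.482 in 8 batches but 1.44, 1.54, 1.87 and 5.21 in the other 4. Cd74 was also apart without overlap in B cells and in conventional dendritic cells of type 2 (cDC2). The latter had 851 to 4589 CPM of it in the 8 batches. In those of the 4 with at least 10 such cells they had 13059 to 34845 CPM. Naive-type CD4 Lef1 T cells had at most 187 CPM of Cd74, and their values overlapped between both kinds of batch. The ribosomal protein gene Rpl35 mostly went the other way. B cells had 648 to 4059 CPM of it in those of the 8 batches with at least 10 B cells. In the 4 they had 153 to 934 CPM, so that the ranges overlapped. All 4 tumor sums were in the 4 batches with more Cd74 than H2-Aa, mouse 8 in 1 batch that also held lungs and mice 9, 10 and 38 in another with tumors only. Of the 26 lung sums, 9 from 6 mice were in these batches and 17 were not. The 9 were of distal normal tissue, metastases and an invasive margin, and of the relapse-free lung of mouse 35, without control or Pre-MET lungs. All 9 came from mice after resection. The comparison of tumor with lung is therefore given a second time within the 4 batches, a choice made after the values were seen. Tissue and batch cannot be told apart there for the tumors of mice 9, 10 and 38, nor tissue and resection for any tumor.

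**Figure D1:**
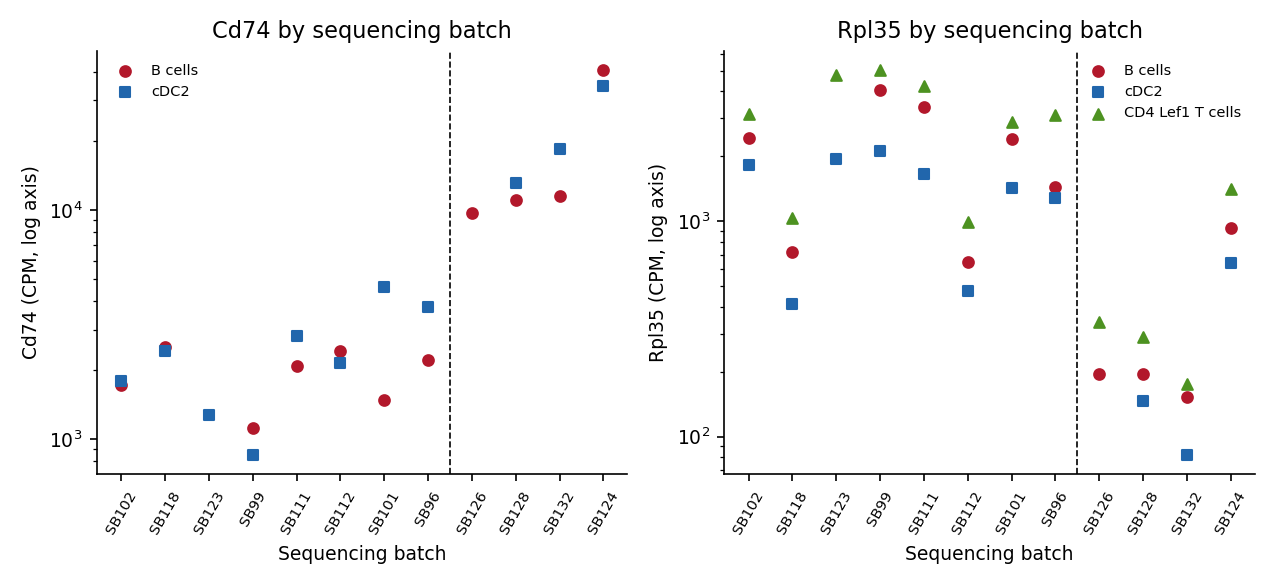
Levels of Cd74 (left) and Rpl35 (right), in CPM on a log axis, in the pooled B cells, cDC2 and CD4 Lef1 T cells (right only) of the 12 sequencing batches. Points are drawn for batches with at least 10 cells of the type. Batches are ordered by the ratio of Cd74 to H2-Aa UMIs in immune cells other than B, and the 4 batches right of the dashed line have a ratio above 1; Cd74 is higher and Rpl35 mostly lower there in every cell type shown.

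A few cells also stood apart. The number of UMIs per B cell was 500 to 90142, with a median of 1001, and 3 cells had more than 10000 UMIs, all of them in primary tumors. The cell with 90142 UMIs made up 35.9% of the sum of mouse 9, another with 12687 UMIs 5.05% of the same sum, and the third, with 13859 UMIs, 28.6% of the sum of mouse 8. The counts of called genes, and the levels that moved most, are given with and without the 3 cells.

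The mean percentage of B cells was highest in primary tumors, but single lungs overlapped with them and none of the 6 comparisons passed after adjustment. B cells were 10.2% of immune cells in the tumor of mouse 8, 18.8% in mouse 9, 11.6% in mouse 10 and 10.7% in mouse 38. In the Pre-MET lungs of mice 8, 9 and 10 they were 4.42%, 7.27% and 4.32%, so that the tumor was above the lung in each of these 3 mice and the groups did not overlap. The mean was 12.8% ± 4.03 (SD, n = 4) in tumors and 5.34% ± 1.67 (SD, n = 3) in Pre-MET lungs, a difference of 7.49 percentage points with a two-sided exact permutation p of 0.0571, the smallest that 4 against 3 samples can give, and 0.274 after Benjamini-Hochberg adjustment over 6 comparisons. The 3 control lungs had 10.5%, 10.4% and 8.36%, a mean of 9.75% ± 1.20 (SD, n = 3), which lay above all 3 Pre-MET lungs. That difference of -4.41 points had an exact permutation p of 0.100, again the smallest possible, and an adjusted p of 0.274. Tumors were 3.08 points above control lungs, with overlap (exact permutation p = 0.229, adjusted 0.274). The control lungs were all in a batch of their own, so that batch and group cannot be told apart there.

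After resection the spread between mice was wide. Relapse-free lungs ranged from 2.54% to 10.8% with a median of 4.98%, and their mean of 6.06% ± 3.79 (SD, n = 6) did not differ from control lungs beyond this spread (exact permutation p = 0.214, adjusted 0.274). Distal normal tissue had 0% to 8.46% (median 1.75%), with 4 of 14 samples at 0, and metastases 0% to 9.04% (median 2.16%). In the 13 mice with both, metastases exceeded distal normal tissue in 5 mice, with a mean difference of 0.452 points (exact sign-flip permutation p = 0.531, adjusted 0.531). Metastasis cores had 0% to 2.53% (median 0.870%) and invasive margins 0% to 6.31% (median 2.00%). The margin was above the core in 5 of 6 mice with both, by 1.44 points on average (exact sign-flip permutation p = 0.156, adjusted 0.274), and this difference turned to -0.312 points when only cells with at least 1000 UMIs were counted. Percentages are shares of sorted immune cells, so that a lower share of B cells and a higher number of other cells cannot be told apart.

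**Figure D2:**
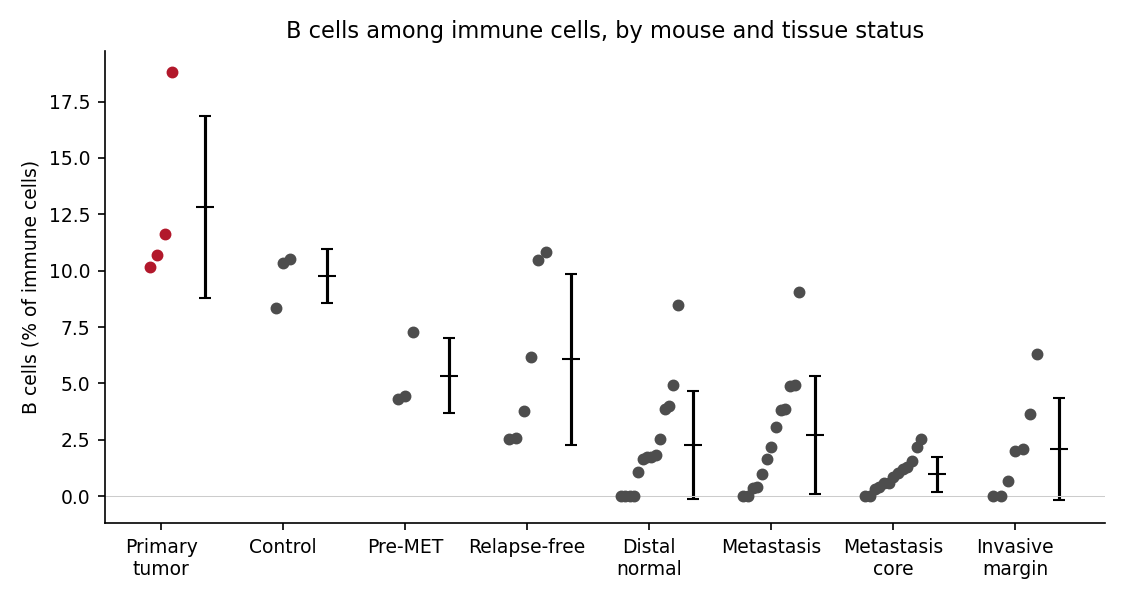
B cells in percent of immune cells for each of the 63 samples (1 point per mouse and tissue status), by group, with the group's mean and SD beside the points. The 4 primary tumors lie between 10.2% and 18.8%, above the 3 Pre-MET lungs, and all metastasis cores lie at or below 2.53%.

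Expression in tumor B cells was compared with all lung B cells by edgeR's quasi-likelihood test on the sums. Of 1096 genes tested, 13 passed at an adjusted p below 0.05 (1.19%), 4 higher (0.365%) and 9 lower (0.821%) in tumors. The higher genes were Pkm, which encodes the pyruvate kinase of glycolysis, the actin regulators Tmsb10 and Pfn1, and Rpl22l1, a paralog of a ribosomal protein gene. The lower genes included Fos, a subunit of the AP-1 transcription factor that is induced within minutes of a stimulus, Ppp1r15a, a stress-induced regulator of the phosphatase that restores translation, Klf2, a factor of quiescent and recirculating lymphocytes, and the neutrophil genes S100a8 and S100a9. The other 4 lower genes were the predicted genes Gm10837, Gm25593 and Gm25594 and the pseudogene Rps19-ps3. Reads of a pseudogene can belong to its parent gene, which was not tested. A bulk sum cannot tell more transcripts per cell from more cells that carry them.

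Within the 4 batches with more Cd74 than H2-Aa, 9 of 908 genes passed by edgeR (0.991%), all lower in tumors, and none higher (0%). They were Ppp1r15a, the immediate early genes Fos, Junb and Btg2, the chemokine receptor Ccr7, which guides lymphocytes to lymph nodes, Rgs2, an inhibitor of G protein signaling, Tsc22d3, a target of glucocorticoid hormones known as GILZ, S100a8 and Gm45745, a transcript without a known product. Ppp1r15a, Fos and S100a8 were thus lower in both fits, and Klf2 missed the threshold in the second (log2 fold change -1.81, edgeR adjusted p = 0.104). Pkm was 1.57 higher on the log2 scale there but missed it too (adjusted p = 0.109), and Cd74 itself differed by 0.12 (adjusted p = 0.952). Ppp1r15a, Rgs2, S100a8 and Klf2 passed the filter on low counts only through the lungs, where they were high. Their calls are therefore a description. Other fits of these batches called genes in both directions, as given below. The only batch with both tissues held 1 tumor sum, so that calls are not given for it.

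The promoters of 4 of these genes are shown as examples of a shared letter motif, which others of them carry too. The windows are the 250 bases before the start of the gene in RefSeq on GRCm38.p6, written 5′ to 3′ on the strand of the gene: chr12:85473640-85473889 on the plus strand for Fos, chr8:84978749-84978998 for Junb, chr1:134079156-134079405 for Btg2 and chr7:45526269-45526518 for Ppp1r15a, all on the minus strand. Capitals mark TGACG, the half-site that cAMP response element binding proteins recognize, or the full TGACGTCA, which contains the half-site on both strands.
Fos: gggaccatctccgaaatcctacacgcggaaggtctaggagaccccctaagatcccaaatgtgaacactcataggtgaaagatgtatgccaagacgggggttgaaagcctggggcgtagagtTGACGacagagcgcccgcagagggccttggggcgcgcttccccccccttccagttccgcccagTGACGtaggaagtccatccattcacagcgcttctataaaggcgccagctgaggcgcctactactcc
Junb: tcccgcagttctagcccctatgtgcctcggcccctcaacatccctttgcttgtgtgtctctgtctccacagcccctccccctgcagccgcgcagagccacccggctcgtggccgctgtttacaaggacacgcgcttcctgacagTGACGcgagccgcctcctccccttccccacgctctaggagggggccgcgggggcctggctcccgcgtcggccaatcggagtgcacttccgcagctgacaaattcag
Btg2: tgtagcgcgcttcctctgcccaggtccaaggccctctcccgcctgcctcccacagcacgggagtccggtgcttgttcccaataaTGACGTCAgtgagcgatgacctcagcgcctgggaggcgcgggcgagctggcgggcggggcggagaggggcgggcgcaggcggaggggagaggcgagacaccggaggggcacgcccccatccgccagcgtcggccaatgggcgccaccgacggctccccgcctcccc
Ppp1r15a: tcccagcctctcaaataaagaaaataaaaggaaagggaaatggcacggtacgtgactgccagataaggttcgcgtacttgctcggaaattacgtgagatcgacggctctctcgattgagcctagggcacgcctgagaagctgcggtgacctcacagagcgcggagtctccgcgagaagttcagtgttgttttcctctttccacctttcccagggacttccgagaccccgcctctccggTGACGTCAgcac
Of the 15 genes that were lower in either fit, 9 had windows in the RefSeq table, 11 in all, since Tsc22d3 had 3. The half-site stood on either strand in 7 of the 11 windows, against 17.8% of 32851 promoter windows of the same length. Besides the 4 shown, these were the windows of Rgs2 and Klf2 and 1 of Tsc22d3. The full motif stood in Btg2 and Ppp1r15a, against 1.55% of all windows. These are counts of letters over genes chosen by their expression, with no test.

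Ppp1r15a, which passed the filter on low counts through the lungs, was the gene with the lowest adjusted p in the second fit. It had 82.6, 19.9, 88.3 and 50.6 CPM in the tumors of mice 8, 9, 10 and 38. In the 9 lung sums of the 4 batches it ranged from 253 to 651 CPM with a median of 442. All 4 tumors lay below all 9 lungs, and the log2 fold change was -2.89 (SE 0.55, edgeR adjusted p = 0.0083). Across all 26 lung sums the range was 0 to 1150 CPM, so that tumors and lungs overlapped there, with a log2 fold change of -2.66 (SE 0.64, adjusted p = 0.0396). Without the lungs of mouse 36 it no longer passed in the second fit (edgeR adjusted p = 0.0889), nor was it called there without the tumor of mouse 9.

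Fos had 165, 143, 177 and 557 CPM in the tumors of mice 8, 9, 10 and 38. The lungs of the 4 batches had 512 to 1692 CPM (median 780). The tumor of mouse 38 was above the lowest lung and the other 3 were below all of them. The log2 fold change was -1.70 (SE 0.42, edgeR adjusted p = 0.0430), and -1.76 against all lungs (adjusted p = 0.0498). Junb had 520 to 625.1 CPM in the 4 tumors and 794 to 4164 CPM in the lungs of the 4 batches. Both did not overlap (log2 fold change -1.46, SE 0.35, edgeR adjusted p = 0.0357). Against all lungs, which ran from 124 to 4164 CPM, Junb did not pass (-0.60, adjusted p = 0.752), and the low values lay in the other batches. Btg2, a brake on the cell cycle that is induced with these genes, had 62.0, 295, 236 and 294 CPM in tumors. It had 377 to 2016 CPM in the lungs of the 4 batches, again without overlap (-1.73, SE 0.44, edgeR adjusted p = 0.0460).

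Of the 18 genes listed as immediate early, 9 could be tested against all lungs, of which 1 (Fos) was called and 8 had a log2 fold change below 0, with a median of -1.12 beside -0.04 for all genes, of which 0.821% were called lower. In the second fit 8 were tested, 3 were called lower (Fos, Junb and Btg2) and 8 were below 0, with a median of -1.50 beside 0.03 for all genes, of which 0.991% were called lower. The summed level of the list was 2024 to 2703 CPM in tumor B cells. It was 4148 to 11408 CPM in B cells of the lungs in the second fit. Over all 26 lung sums it was 2139 to 11408 CPM, so that tumors and lungs overlapped there. With 1 lung sum per mouse in the second fit, the calls were Ppp1r15a, Ccr7, Rgs2, S100a8 and Spp1, so that Fos, Junb, Btg2 and Tsc22d3 lost the call. The dissociation program differed with the tissue, and its part in these values cannot be told apart from that of the tissue.

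Ccr7, the homing receptor of naive lymphocytes, had 207, 279, 412 and 233 CPM in the tumors of mice 8, 9, 10 and 38. In the lungs of the second fit it had 190 to 1895 CPM (median 1289). There 1 lung sum lay below all the tumors (log2 fold change -2.0, SE 0.43, edgeR adjusted p = 0.0209). Klf2, which drives expression of S1pr1, had 41.3 to 157 CPM in tumors and 168 to 720 CPM in these lungs, without overlap, although it missed the threshold in the second fit. Of the 14 genes for homing and adhesion, 8 could be tested in each fit. None passed against all lungs, with 8 below 0 and a median of -0.72 beside 1.19% and -0.04 for all genes. In the second fit 1 (Ccr7) passed, with 7 below 0 and a median of -0.87 beside 0.991% and 0.03.

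Rgs2 had 124, 55.7, 108 and 20.2 CPM in the tumors of mice 8, 9, 10 and 38. It had 130 to 583 CPM in the lungs of the second fit (log2 fold change -2.39, SE 0.56, edgeR adjusted p = 0.0357). Tsc22d3 had 294 to 486 CPM in tumors and 541 to 3116 CPM in these lungs (-1.65, SE 0.40, adjusted p = 0.0357). For both genes no tumor reached the lowest lung, though for Rgs2 the gap was narrow, and against all lungs neither passed (adjusted p = 0.0778 and 0.0781).

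**Figure D3:**
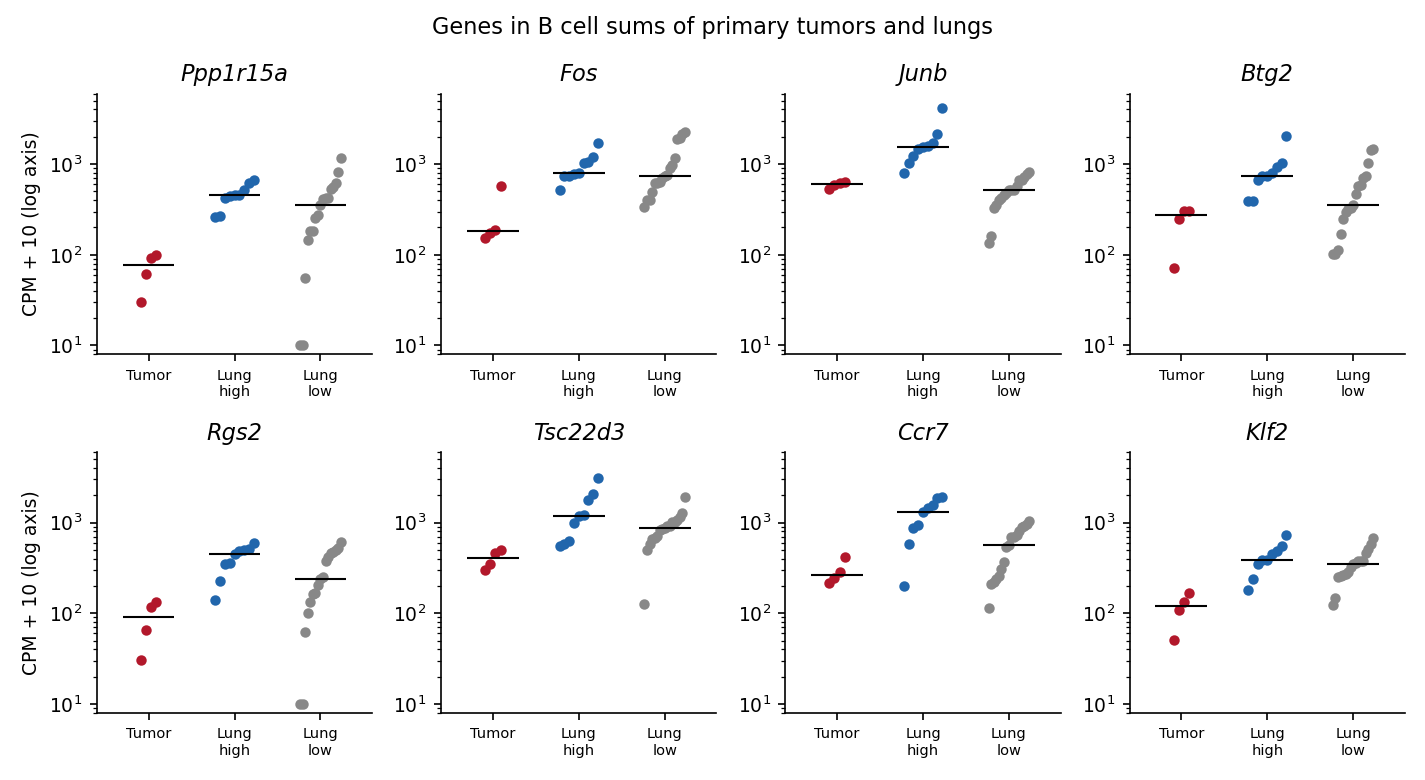
Levels of 8 genes in CPM + 10 on a log axis, 1 point per B cell sum, for the 4 primary tumors, the 9 lung sums of the batches with more Cd74 than H2-Aa (Lung high) and the 17 other lung sums (Lung low), with the median of each group as a line. The tumor points of Ppp1r15a, Junb, Btg2, Rgs2, Tsc22d3 and Klf2 lie below all Lung high points, while Fos and Ccr7 each overlap in 1 sample.

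The same contrast was computed in CD4 Lef1 T cells, naive-type T cells of the same mice and batches, to set other lymphocytes beside the B cells. In the 4 batches 19 of 1599 genes passed in the T cells (1.19%). Of the 9 B cell genes, 8 were tested in T cells, and 6 passed there too: Ppp1r15a with a log2 fold change of -2.79, Fos with -2.95, Btg2 with -1.87, Junb with -1.54, Rgs2 with -2.78 and S100a8 with -5.77. Ccr7 and Tsc22d3 fell short in T cells, with -1.26 (edgeR adjusted p = 0.251) and -0.76 (adjusted p = 0.577). A test of the difference between B and T cells called none of the 9 genes, although it called 8 of 1571 genes in all (0.509%), so that none of the 9 was shown to be particular to B cells. Among those 8, the log2 fold change of B cells minus that of T cells was -3.65 for H2-Aa, -2.33 for H2-Ab1, -2.76 for H2-Eb1 and -2.22 for Cd74. In B cells alone these genes had -0.14, -0.15, 0.20 and 0.12, and none passed; H2-Ab1 had 2.01 in T cells (edgeR adjusted p = 0.116), where the others could not be tested alone. The T cells share mice, plates and batches with the B cells and are no independent repeat.

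The neutrophil gene S100a8 was far lower in tumor B cells. It had 82.6, 3.98, 0 and 10.1 CPM in the tumors of mice 8, 9, 10 and 38 and 0 to 4610 CPM (median 498) in all lung sums (log2 fold change -5.69, edgeR adjusted p = 0.0275). The same gene ran from 49 to 615 CPM in the other immune cells of the tumors and from 922 to 69108 CPM in those of the lungs, so that its level in B cells moved with that in their neighbors. Whether these UMIs came from the B cells was not tested.

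Pkm had 496, 1095, 824 and 273 CPM in the tumors of mice 8, 9, 10 and 38 and 0 to 690 CPM (median 154) in lungs, with 2 tumors above all lungs (log2 fold change 2.20, SE 0.53, edgeR adjusted p = 0.0396). The highest value rested on 1 cell: without the cell of 90142 UMIs and the other deep cell of mouse 9, Pkm in that tumor was 357 CPM, from 53 instead of 275 UMIs. Of the 15 genes for glycolysis and hypoxia, 4 could be tested, of which Pkm was called, with a median of 1.40 beside -0.04 for all genes, of which 0.365% were called higher. Tmsb10 had 1481 to 2768 CPM in tumors and 357 to 2021 CPM in lungs (1.17, SE 0.32, adjusted p = 0.0498). Pfn1 had 2463 to 4668 CPM in tumors and 528 to 3524 CPM in lungs (1.10, SE 0.29, adjusted p = 0.0498). Both overlapped between the tissues. Without the deep cells Pfn1 in the tumor of mouse 9 was 3270.0 instead of 4360.0 CPM.

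The B cell lists are read against the 1.19% of all genes that passed against all lungs, with a median of -0.04. Of the antigen receptor genes 5 of 8 were tested and none passed, with a median of -0.14, and of the 14 tested genes of B cell receptor signaling none passed either, with a median of 0.18. None of the 10 tested genes of MHC class II and costimulation passed (median 0.16), nor did any of the interferon response (6 tested, median 0.10) or of activation and NF-kappaB (7 tested, median -0.42). Of the B cell transcription factors 1 of 10 passed (median 0.48) and of the naive and follicular genes 1 of 13 (median -0.22), in both cases Klf2. None of the tested genes for heat shock (3), survival receptors (3), plasma cells (2) or marginal zone and B-1 cells (1) passed. No gene of the germinal center, class-switched heavy chain, regulatory B cell and cell cycle lists had enough counts to be tested here. In the second fit the median was -0.59 for the antigen receptor genes, with 4 of 5 below 0, -0.57 for the naive and follicular genes, with 9 of 12 below 0 and Ccr7 called, and -0.67 for activation and NF-kappaB, with 6 of 7 below 0.

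The call of these genes depended on the libraries. Against all lungs, leaving out the tumor of mouse 10 left 0 calls and leaving out any other tumor left 1: S100a8 without mouse 8, Spp1 without mouse 9 and Fos without mouse 38. Without the 3 deep cells none of 1093 genes passed by edgeR (126 at an unadjusted p below 0.05), and DESeq2 on the full sums called 60, 9 higher and 51 lower. Without the lung sums of mouse 36, which gave 3 of them, 49 genes passed, and with the mouse as a replicate block in limma-voom 129, 80 higher and 49 lower, against 71 by limma-voom without the block, 50 higher and 21 lower. With sequencing batch as a term the tumor effect rested on the 1 tumor sum of mouse 8, since the batch of the other tumors held no lung. Its calls are therefore not given. Within the 4 batches the count was 1 to 3 when a tumor was left out, 1 without mouse 36, 25 with the replicate block and 4 without the deep cells. DESeq2 called 18 there, 2 higher and 16 lower, limma-voom with the replicate block 13 higher and 12 lower, and limma-voom without it 18 higher and 13 lower. The balance of higher and lower calls thus depended on the fit. Without mouse 36, which gave 3 of the 9 lung sums, the only call was S100a8, and Ppp1r15a, Ccr7 and Rgs2 each had an adjusted p of 0.0889. With a tumor left out, Junb, Btg2, Tsc22d3, Ccr7 and Rgs2 were called by edgeR in no fit of the 4 batches. Ppp1r15a was called in all but that without mouse 9. The 4 without the deep cells were Ppp1r15a (-2.73, adjusted p = 0.0070), Rgs2 (-2.76, adjusted p = 0.0156), Ccr7 (-1.71, adjusted p = 0.0477) and Spp1, and Fos then had -1.55 (adjusted p = 0.0646).

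Cells with many proliferation transcripts were found in tumors, a pattern chosen after the values were seen. At least 5 UMIs of Mki67, a marker of proliferation, and Top2a, the topoisomerase of dividing cells, together were counted in 5 of 196 tumor B cells (2.55%), which came from all 4 tumors, and in 0 of 859 lung B cells. Since tumor cells were deeper, each cell was thinned to 500 UMIs. At least 1 UMI of either gene then remained in 7 of 196 tumor cells (3.57%, exact 95% interval 1.45% to 7.22%) and in 2 of 859 lung cells (0.233%, 0.0282% to 0.839%). Of the 15 genes of the cell cycle list, at least 2 UMIs remained in 15 of 196 tumor cells (7.65%) and in 20 of 859 lung cells (2.33%). In the CD4 Lef1 T cells the shares for Mki67 or Top2a were 1 of 126 (0.794%) and 11 of 2900 (0.379%). Intervals cover counting error only.

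By sum, the thinned share was 0% in the tumor of mouse 8, 6.35% in mouse 9, 4.26% in mouse 10 and 1.79% in mouse 38. In lungs it was above 0 in 2 of 26 sums, at 1.85% in the distal normal tissue and 2.22% in the metastasis of mouse 36. The means were 3.10% ± 2.78 (SD, n = 4) and 0.157% ± 0.556 (SD, n = 26), a difference of 2.94 points (two-sided exact permutation p = 0.00569), which was 2.58 points without the deep cells (exact permutation p = 0.00569). Within the 4 batches with more Cd74 than H2-Aa the difference was 2.65 points and did not pass (exact permutation p = 0.0755). With 1 lung sum per mouse, a choice made after the values were seen, it was 3.01 points (exact permutation p = 0.00395) and, within the 4 batches, 2.82 points (exact permutation p = 0.0667). Without thinning the share was 3.33%, 6.35%, 4.26% and 5.36% in mice 8, 9, 10 and 38 and above 0 in 3 of 26 lung sums, at most 2.22%. The only such cell of mouse 8 was the deep one, so that 3 of 4 tumors were above 0 without the deep cells. Since the pattern was chosen on these same values, the permutation p values here describe it and cannot serve as a test of it.

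The 3 deepest cells differed in what they held. The cell of 90142 UMIs in mouse 9 held 28 UMIs of Mki67 and 63 of Top2a, 299 of Ldha and 222 of Pkm, and 189 of Ighm beside 63 of the switched Ighg2b but none of Ighd. It also held 46 UMIs of Ms4a1, with 1 UMI of the myeloid gene Lyz2 and 0 of the T cell receptor gene Trbc2. The cell of 13859 UMIs in mouse 8 held 14 UMIs of Mki67, 16 of Top2a, 0 of Ldha and 5 of Pkm, 19 of Jchain, which joins secreted IgA and IgM, and 24 of Ighg2b, with 0 of Ighm and Ighd. The third, of 12687 UMIs in mouse 9, held 108 UMIs of Ighm, 188 of Igkc and none of Mki67, Top2a or Ighg2b. All 3 held transcripts of both light chain loci. Igkc and Iglj1, of the lambda locus, had 233 and 71 UMIs in the first cell, 162 and 14 in the second and 188 and 19 in the third. Wells of more than 1 cell were not called by a doublet caller; the sorting gate excluded doublets.

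Switched heavy chains were rare in both tissues. A UMI of any of Ighg1, Ighg2b, Ighg2c, Ighg3, Ighe or Igha was found in 12 of 196 tumor B cells (6.12%) and in 22 of 859 lung B cells (2.56%), against 11 of 2900 lung CD4 T cells (0.379%) and 2 of 126 in tumors. Tumor cells held Ighg2b, the IgG2b chain, in 10 cells with 111 UMIs, of which 63 were in the deepest cell, and Igha, the IgA chain of mucosal tissues, in 0 of 196 cells, which allows a share of cells with a UMI of up to 1.53% for counting error only, over the pooled cells of 4 mice. Lung cells held Igha in 10 cells (1.16%) with 68 UMIs and Ighg2b in 6. Single isotypes were not compared between mice. Of the 34 switched cells, 22 lacked Ighd and 12 lacked both Ighm and Ighd. After thinning, the share was 3.52% ± 2.77 (SD, n = 4) in tumors and 2.02% ± 3.89 (SD, n = 26) in lungs, a difference of 1.5 points (exact permutation p = 0.465, adjusted 0.775 over 5 shares). It ran from 0.455 points without the tumor of mouse 8 to 2.68 without that of mouse 38, and was 2.63 points where only samples of at least 20 B cells were used (exact permutation p = 0.0396, not adjusted). Without thinning it was 3.26 points (exact permutation p = 0.196), with 1 lung sample per mouse 2.27 (p = 0.173), and where 2 UMIs were needed to call a cell 0.0757 (p = 0.909). Jchain was found in 4 tumor cells with 30 UMIs, of which 19 were in 1 cell, and in 1 lung cell with 1 UMI. After thinning it remained in 1 tumor cell and 0 lung cells.

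The share of B cells with kappa light chain transcripts was compared in the same way. At 500 UMIs a cell, Igkc was found in 86.7%, 68.3%, 74.5% and 69.6% of the B cells in the tumors of mice 8, 9, 10 and 38, and in 69.2% to 100% of those in lung sums, with a median of 87.1%. The means were 74.8% ± 8.37 (SD, n = 4) and 85.6% ± 7.56 (SD, n = 26), a difference of -10.9 points with an exact permutation p of 0.0196 and 0.0978 after adjustment over the 5 shares, so that it did not pass. All tumors but that of mouse 9 lay within the range of the lungs. Within the 4 batches the difference was -10.2 points (exact permutation p = 0.0448, not adjusted). Leaving out a tumor gave -14.9 points without mouse 8 (exact permutation p = 0.00493, adjusted 0.0246), -10.8 without mouse 10 (p = 0.0438), -9.19 without mouse 38 (p = 0.0788) and -8.72 without mouse 9 (p = 0.0909). With 1 lung sample per mouse, a choice made after the values were seen, it was -12.1 points (exact permutation p = 0.00264, adjusted 0.0132). At the same 500 UMIs a cell, Igkc was found in 0.794% of the tumor and 2.97% of the lung CD4 T cells, a background far below the level in B cells. The share of cells with a UMI of Iglj1, of the lambda locus, was 17.5% in tumors and 20.9% in lungs, a difference of -3.37 points (exact permutation p adjusted to 0.825). Ighm and Ighd shares differed by -1.11 and 8.34 points and did not pass (adjusted p = 0.844 and 0.602).

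Kappa and lambda transcripts were unevenly shared out between single cells. Igkc had 0 UMIs in 161 B cells (15.3%), and 84 of these (52.2%) had a UMI of Iglj1, a joining segment of the lambda locus, and 61 (37.9%) had at least 10. Among the 630 cells with at least 10 Igkc UMIs, 113 (17.9%) had a UMI of Iglj1 and 40 (6.35%) at least 10. By the share of cells with a UMI, Iglj2 and Iglj3 did not follow this pattern. A UMI was in 46.6% and 40.4% of the cells without Igkc and in 56.5% and 53.2% of those with at least 10 Igkc UMIs. Mean UMIs per cell went the other way, at 12.994 against 4.6746 for Iglj2 and 4.7516 against 3.6921 for Iglj3. For Iglj1 they were 17.95 against 3.554. The constant genes Iglc1 and Iglc2 were at 0 in every B cell.

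**Figure D4:**
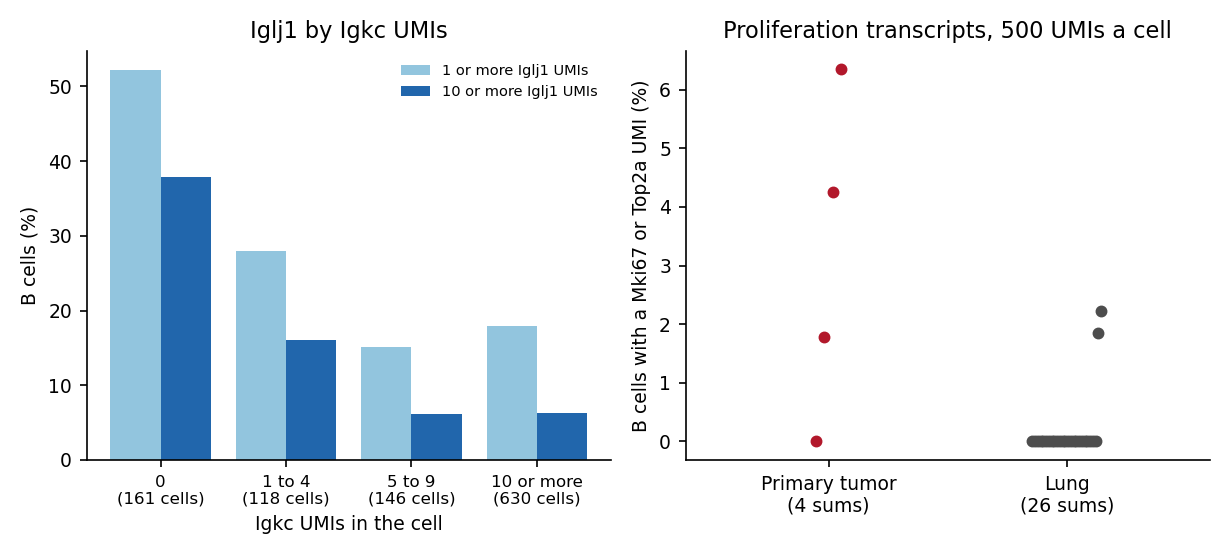
Left, percent of B cells with at least 1 or at least 10 Iglj1 UMIs, for cells grouped by their Igkc UMIs (number of cells under each pair of bars). Right, percent of B cells with a Mki67 or Top2a UMI after thinning to 500 UMIs a cell, 1 point per sum; 3 of 4 primary tumors and 2 of 26 lung sums lie above 0.

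Tumor and Pre-MET lung B cells of tumor-bearing mice differed in 117 of 923 genes (12.7%), 41 higher (4.44%) and 76 lower (8.23%) in tumors. All 3 Pre-MET sums were in batches with little Cd74 and all 4 tumors in batches with much, so that tissue and batch cannot be told apart in this comparison. Of the 76 lower genes 43 were predicted genes or microRNA loci, 19 ribosomal protein genes or their pseudogenes and 2 mitochondrial, and of the 41 higher genes 31 were other named genes. The 12 largest falls had log2 fold changes of -8.39 to -4.31 and were 9 predicted genes, S100a8, Rpl35 and Rpl37. Besides genes described below, the 12 largest rises were Mir5107 (5.33), a microRNA locus, Ttll3 (4.34), a ligase that modifies tubulin, Smc1a (4.27), a subunit of cohesin, the selenoprotein gene Selenow (4.08), Lsm4 (4.03), which encodes an RNA-binding subunit of the splicing machinery, and the predicted gene Gm12319 (4.0). The mouse as a replicate block, over mice 8, 9 and 10, left 71 genes, against 91 in the same mice without the block.

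The genes that mark the batches were among the called ones. Cd74 had 9632 to 14358 CPM in the tumors and 870 to 1632 CPM in the Pre-MET lungs (log2 fold change 3.58, SE 0.36, edgeR adjusted p = 1.7e-05). Cd79a had 764 to 1466 CPM in tumors against 62.1 to 158 CPM (3.65, SE 0.50), and Xist 2.99, while Rpl35 (-4.33) and mt-Co2 (-2.51) were lower in tumors. In the immune cells other than B, Cd74 and mt-Co2 differed in the same direction between both kinds of batch without overlap, and Cd79a, Xist and Rpl35 did so with overlapping ranges.

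Further B cell genes were called higher in this comparison, but none of them by edgeR in the 4 batches. Cd22, an inhibitory coreceptor of the antigen receptor, had 103, 585, 618 and 435 CPM in tumors and 31.1 to 52.7 CPM in Pre-MET lungs (log2 fold change 3.48, edgeR adjusted p = 0.0164). Fcmr, the receptor for IgM, was higher by 2.01, the tetraspanin Cd37 by 1.98 and Ltb, a cytokine that organizes lymphoid tissue, by 2.23. Against the lungs of the 4 batches the log2 fold changes were 0.85 for Cd22, 0.20 for Fcmr, 0.18 for Cd37 and -0.27 for Ltb, with edgeR adjusted p of 0.696, 0.952, 0.952 and 0.912. Of the 4 tested genes of glycolysis and hypoxia 3 passed: Pkm (3.62), the lactate dehydrogenase gene Ldha (2.50) and the aldolase gene Aldoa (1.79), with a median of 2.16 over the 4 beside 0.15 for all genes, of which 4.44% were called higher. Cd22, Cd79a and Pkm passed the filter on low counts through the tumors, where they were high, so that their calls are a description. Without the deep cells 112 of 598 genes passed, among them Cd22 (3.56), Fcmr, Cd37, Ltb and Pkm (3.08, edgeR adjusted p = 0.0221). Ldha (1.90, adjusted p = 0.0737) and Aldoa (1.66, adjusted p = 0.0502) did not, and Ldha in the tumor of mouse 9 was then 553 instead of 1517 CPM.

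Other single genes called higher were the tubulin genes Tuba1b (4.46) and Tubb5 (3.82), Ranbp1 (3.29), a regulator of nuclear transport, and the galectin gene Lgals1 (3.76). Tubb5 had 283 to 832 CPM in tumors and 0 to 93.2 CPM in Pre-MET lungs, and a log2 fold change of 3.41 without the deep cells, where Lgals1 passed as well (3.56). Tubb5 passed the filter on low counts through the tumors too, so that its call is a description. Tuba1b and Ranbp1 could not be tested without them, and Tuba1b in the tumor of mouse 8 went from 18 UMIs (372 CPM) to 1 UMI (28.9 CPM). None of the 7 tested immediate early genes passed here, with a median of -0.72.

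Spp1, the gene of osteopontin, had no UMI in the 3 Pre-MET sums, and 930, 199, 923 and 860 CPM in the tumors of mice 8, 9, 10 and 38. Over the pooled 500236 UMIs of the tumor sums this is 548 CPM, at least 12.9-fold above a limit of 42.4 CPM. The limit comes from 3 counts in the 70811 UMIs of the Pre-MET sums. This fold is for pooled UMIs and covers counting error only. It leaves out the spread between mice, such as the 199 CPM of mouse 9. In the other immune cells Spp1 had 425 to 605 CPM in these tumors and 0 to 15.2 CPM in the Pre-MET lungs. A UMI of Spp1 was found in 51 of 196 tumor B cells (26.0%) and in 28 of 126 tumor CD4 Lef1 T cells (22.2%), with 274 and 64 UMIs in all. After thinning to 500 UMIs a cell the shares were 17.3% and 11.1%, a difference that was not tested. Whether it was made by the B cells was not tested. Against all lungs, where B cell sums had 0 to 285 CPM, Spp1 did not pass the filter on low counts and was not tested. In the alternatives where it passed the filter, it did so through the tumors, where it was high, so that its calls there are a description.

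In the CD4 Lef1 T cells of the same mice 234 of 1411 genes passed in this comparison (16.6%). Of the 117 B cell genes 106 were tested in the T cells and 85 passed there in the same direction. Pkm had 4.65 in T cells beside 3.62 in B cells, Ltb 3.44 beside 2.23, Xist 2.70 beside 2.99, and Rpl35 -4.70 beside -4.33. Tubb5 (0.87), Lgals1 (0.79) and Ranbp1 (0.72) did not pass in T cells. A test of the difference between the cell types called 2 of 1954 genes (0.102%), with B minus T differences of 4.61 for Igkc and -2.58 for H2-Ab1. The B cell values were -0.15 and 0.02, and H2-Ab1 had 2.73 in T cells, where Igkc could not be tested alone. The difference was not called for Tubb5, Lgals1 or Ranbp1 (edgeR adjusted p = 0.773 for each). With all lungs as the other group, 120 of 2764 genes passed in T cells (4.34%) and the difference between B and T cells was called for 1 of 2499 (0.04%), Dad1, at -2.14. All 13 genes called in B cells had the same sign in T cells and 10 were called there, among them Pkm (1.88), Pfn1 (0.93) and Tmsb10 (1.12).

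**Figure D5:**
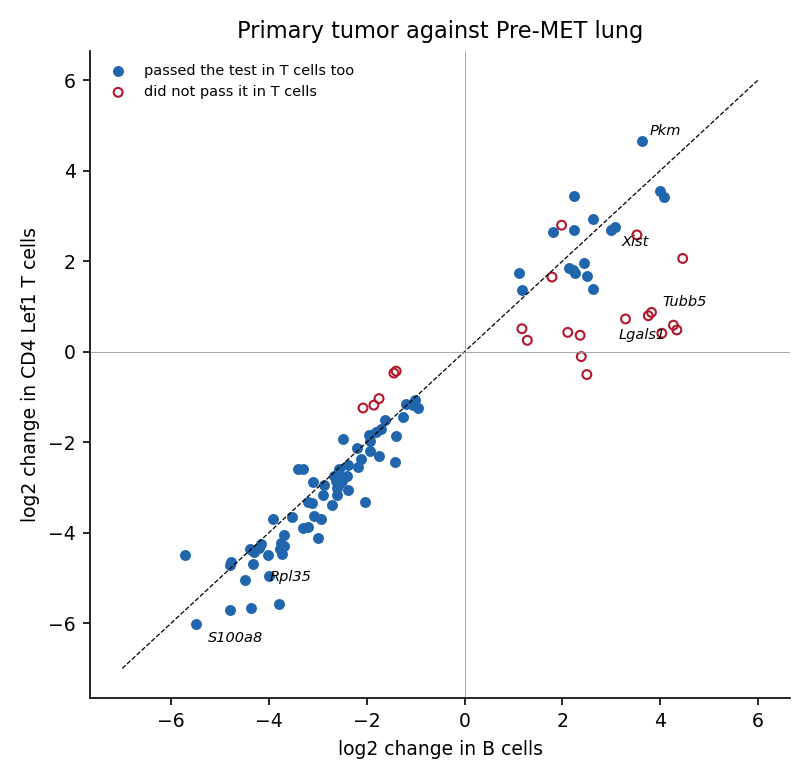
Log2 fold change of primary tumor against Pre-MET lung in B cells (horizontal axis) and in CD4 Lef1 T cells of the same mice (vertical axis), for the genes called in B cells and tested in both, without Spp1 and Gm25594, which have no UMI in the B cells of 1 group. Filled points passed the test in T cells too, the dashed line marks equal values, and Tubb5 and Lgals1 lie far to its right.

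The comparisons among lungs called no gene at these depths. Between Pre-MET and control lungs 0 of 706 genes passed by edgeR (0%; 69 at an unadjusted p below 0.05), and DESeq2 called 1, Ccl5 (log2 fold change -4.82, adjusted p = 0.0483), a chemokine of T and NK cells. The control lungs shared no batch with Pre-MET or relapse-free lungs, so that batch and group cannot be told apart in either comparison. Between relapse-free and control lungs 0 of 1169 genes passed (0%; 44 at an unadjusted p below 0.05, 0 by DESeq2). Between metastasis and distal normal tissue 0 of 265 passed (0%; 10 at an unadjusted p below 0.05, 0 by DESeq2). With the mouse as a replicate block in the 3 mice with both tissues, 2 of 186 genes passed, Iglj1 (-1.98, edgeR adjusted p = 0.0015) and Tsc22d3 (2.01, adjusted p = 0.0022). Core and margin gave 1 and 2 sums and were not compared.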

How the data were processed

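For each plate the authors deposited raw UMI counts per gene and well, without normalization. Reads had been mapped to mm10 with multi-mapping reads excluded, assigned to exons and collapsed to distinct UMIs, and bcl2fastq 2.15.0.4 stands in the submitters' processing notes. The authors' table of wells gave the annotation and the sequencing batch of all 148 plates and 56832 wells, and every sample's group was taken from the labels. No well was named on more than 1 plate (0 cases), and all 1055 B cell wells had received 1 cell.

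B cell UMIs were summed per mouse and status (at least 10 cells), so that n counts such sums, from separate mice except where 1 lung gave several. Genes were tested with the quasi-likelihood F test of edgeR 4.0.16 under R 4.3.3, after filterByExpr and TMM scaling, and called at an adjusted p below 0.05 (Benjamini-Hochberg, over all genes tested), with limma 3.58.1 and DESeq2 1.42.0 as alternatives. Percentages and shares were compared by two-sided exact permutation tests with scipy 1.17.1 under Python 3.11.15. On simulated counts with 4-fold changes, edgeR recovered 83.5% of them among the 1096 genes of tumor against lung and 70.0% among the 923 genes of tumor against Pre-MET lung, 75.0% among the 706 of Pre-MET against control, 57.5% among the 1169 of relapse-free against control and 97.5% among the 265 of metastasis against distal normal tissue. The same number of genes was changed in each simulation, which was most of the 265, so that these shares are not the power of the real tests. In metastasis against distal normal tissue Iglj1, with a log2 fold change of -2.03, had an edgeR adjusted p of 0.917. The precision of a level is set by the UMIs of its sum, which are given in the report. Tumor and Pre-MET samples of mice 8, 9 and 10 came from the same animals, and the residuals of the pairs correlated at 0.056, 0.005 and 0.082; for metastasis and distal normal tissue of mice 28, 36 and 37 the values were 0.302, 0.293 and 0.052.

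Genes were named from hand-written lists and, among called genes of at least 50 CPM in the higher group, as the 12 largest rises and falls of a comparison. The members, the lists and the tests were chosen with earlier results of these data known. A few genes that meet this rule are counted but not reported here. Alternatives were other cell minimums, normalizations, filters, thinning to 500 UMIs a cell, batch restriction, a mouse block and leaving out mice or the 3 deepest cells. Gene positions were those of the files' build, and promoter windows came from RefSeq.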

Additional observations from a re-analysis of the deposited data

Results flagged for a closer look

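In 14 of 110 sets of 4 to 10 samples, 1 sample lay far from the others of its group. The cut-off is made for about 1 in 20 among independent, normally distributed values. These sets share samples and some hold zeros, so that the count cannot be set against chance. In primary tumors these were the B cell percentage of mouse 9 (18.8%, against 10.2% to 11.6% in the other 3), Fos in mouse 38 (557 CPM, against 143 to 177 CPM), S100a8 in mouse 8 (82.6 CPM, against 0 to 10.1 CPM), Aldoa in mouse 38 (324 CPM, against 665 to 726 CPM) and Spp1 in mouse 9 (199 CPM, against 860 to 930 CPM).

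In relapse-free lungs the sum of mouse 35 was apart for 4 genes: Cd74 (8188 CPM, against 1477 to 3659 CPM in the other 5 sums), Cd79a (1597 CPM, against 185 to 687 CPM), Cd37 (897 CPM, against 80.4 to 311 CPM) and Junb (1466 CPM, against 388 to 563 CPM). This sum is the 1 relapse-free sum in the batches with more Cd74 than H2-Aa.

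The neutrophil gene S100a9 was high in the relapse-free sum of mouse 11 (1477 CPM) and in the distal normal sum of mouse 17 (1100 CPM). Spp1 was above 0 in 1 of the 5 distal normal sums, that of mouse 27 (92.7 CPM in a sum of 10783 UMIs, near the floor). Pfn1 was high in the metastasis of mouse 31 (3329 CPM), and the class-switched share was 5.88% in the metastasis of mouse 24 (1 of 17 cells).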

How the results depend on the processing

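The count of genes that differed between tumor and lung B cells moved most. It was 13 as reported, 49 with 1 lung sum per mouse, 32 with at least 20 cells per sum, 1 with at least 5, 60 with DESeq2, 8 with DESeq2 size factors in edgeR, 0 after thinning to 500 UMIs a cell, 129 with the mouse as a replicate block in limma-voom, 71 in limma-voom without it, 721 without a filter on low counts, 0 without the 3 deepest cells, 49 without the lung sums of mouse 36 and 0 to 1 when a tumor was left out. Within the batches with more Cd74 than H2-Aa it was 9 and became 5 with 1 lung sum per mouse, 0 after thinning, 18 with DESeq2, 25 with the replicate block in limma-voom, 31 without it, 1 without mouse 36, 4 without the deepest cells and 1 to 3 without a tumor. The test of the difference from T cells called 1 gene, and 2 for tumor against Pre-MET lung. That comparison called 117 genes, 61 after thinning, 71 with the replicate block and 63 to 140 when a sum was left out, lowest without the Pre-MET sums of mouse 9 (63) and mouse 8 (70).

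Pre-MET against control called 0 genes, 1 with DESeq2 and 6 without a filter. Relapse-free against control called 0, and 1 without a filter. Metastasis against distal normal tissue called 0, 1 with at least 20 cells per sum, where distal normal tissue was 1 sum assumed to vary like the others, 2 with the replicate block and 1 without a filter. Margin minus core in B cell percentage turned to -0.312 points with cells of at least 1000 UMIs, and the kappa difference ran from -14.9 points without the tumor of mouse 8 to -8.72 without that of mouse 9, and was -12.1 with 1 lung sample per mouse, in place of -10.9. The difference in switched cells was 1.5 points, 0.455 to 2.68 when a tumor was left out. Of 425 values for 29 genes in tumor against Pre-MET lung, 381 kept their side of the threshold and 44 lost the call. Of 506 values for 19 genes in tumor against lung, 267 kept it, 200 lost it and 39 gained it; none changed sign. Apart from the fits named for fewer cells or samples, the cause was not tested.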
